A study of Homo sapiens with 12 samples.

Results

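GRCh38, the human reference genome, holds sequences that could not be put in order along a chromosome. Unplaced contigs (chrUn) have no known chromosome, unlocalized contigs (random) have a chromosome but no position on it, and alternate loci (alt) are second versions of a placed region. The regions described here were all summits of EGFR-chimera ChIP-seq peaks whose sequence name holds the character "_", which takes in these 3 kinds. They numbered 321 of 2186 summits in 4 lists, with 158 on unplaced contigs, 7 on alternate loci and the rest on unlocalized contigs, and the other 1865 lay on assembled chromosomes.

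The lists came from B2B1 cells, 1 clone of MCF10A-5E, a line of human breast epithelium. The clone carries the intracellular domain of human EGFR in a chimera with a GluGlu tag and that of rat Erbb2 in a chimera with an HA tag. Both chimeras have an NGFR extracellular domain, and AP21967 (AP) joins them through their FRB and FKBP domains. All cells were grown for 7 days as overlay cultures, with 0.5 µM AP (plus AP) or 0.1% ethanol (minus AP) for the last 24 h, and each condition had 2 biological replicates. Chromatin was immunoprecipitated with the GluGlu tag of the EGFR chimera, and the input and naive IgG libraries of the same conditions were not analysed here. Each list gives positions and a score, the −log10 of the q-value that the peak caller gave the summit, so that rank 1 is the highest score of a list. No read numbers are given, depth is unknown, and scores were compared only by rank within a list.

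Contigs of this kind are rich in satellite DNA, long arrays of a short unit repeated head to tail. Alpha satellite forms the centromeres, and some of its units hold the CENP-B box, the binding site of a centromere protein. Arrays of CATTC pentamers belong to the satellites found beside centromeres. Ribosomal DNA is another array, in which each unit carries a 45S gene, transcribed by RNA polymerase I and processed into 18S, 5.8S and 28S ribosomal RNA, followed by a long intergenic spacer. The 5S ribosomal RNA comes from a separate gene cluster. An assembled genome holds fewer copies of such arrays than a cell does, and reads from many copies can fall on those present.

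Windows of 501 bp centered on the summits were classed by their sequence, and the reference around leading summits is printed from GRCh38, plus strand, 5′ to 3′. The classes other than ribosomal DNA, alpha satellite and CATTC repeat were defined after the windows had been seen. The rules for alpha satellite and CATTC repeat came from an earlier analysis of the same data, so that they are not independent of it. CATTC repeats hold more than 10 copies of CATTC or its reverse complement GAATG, both in capitals here. The window of the highest-scoring contig summit of plus AP replicate 1, on chr1_KI270709v1_random, held 19 copies and is shown because it leads the contig summits of its list.
chr1_KI270709v1_random:5554-5704: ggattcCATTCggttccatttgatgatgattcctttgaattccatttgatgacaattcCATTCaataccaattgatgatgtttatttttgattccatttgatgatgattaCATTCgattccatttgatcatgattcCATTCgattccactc

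AT-rich arrays of a 42-bp unit held the highest-scoring contig summit of minus AP replicate 1, on chrUn_KI270467v1. The stretches below show 3 contigs of this class, with 1 unit in capitals.
chrUn_KI270467v1:1203-1328: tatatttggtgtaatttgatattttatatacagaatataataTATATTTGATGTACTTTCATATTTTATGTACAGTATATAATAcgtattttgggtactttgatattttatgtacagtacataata
chrUn_KI270337v1:747-872: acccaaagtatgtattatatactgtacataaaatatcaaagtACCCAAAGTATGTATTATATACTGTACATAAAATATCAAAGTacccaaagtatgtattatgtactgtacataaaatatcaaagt
chrUn_KI270466v1:458-583: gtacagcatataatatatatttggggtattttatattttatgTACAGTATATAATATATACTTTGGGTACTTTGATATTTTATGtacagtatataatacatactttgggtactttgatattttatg
The unit of chrUn_KI270337v1 occurred without a difference, on the opposite strand, in the window of chrUn_KI270466v1. The unit of chrUn_KI270467v1 matched that window at 90.5% of its bases and the window of the leading 42-bp summit on chromosome 3 at 92.9%. Within the 3 windows, 79.3 to 89.5% of bases equaled the base 42 bp further on, and AT content was 74.7 to 80.4%.

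A 68-bp unit filled much of chr14_GL000225v1_random, the contig with the most summits, and part of chrUn_GL000216v2. Again 1 unit is in capitals.
chr14_GL000225v1_random:131644-131847: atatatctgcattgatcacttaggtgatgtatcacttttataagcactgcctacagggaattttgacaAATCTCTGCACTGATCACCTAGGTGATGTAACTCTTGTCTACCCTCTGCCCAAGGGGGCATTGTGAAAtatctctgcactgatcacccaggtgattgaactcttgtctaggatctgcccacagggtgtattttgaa
chrUn_GL000216v2:149518-149721: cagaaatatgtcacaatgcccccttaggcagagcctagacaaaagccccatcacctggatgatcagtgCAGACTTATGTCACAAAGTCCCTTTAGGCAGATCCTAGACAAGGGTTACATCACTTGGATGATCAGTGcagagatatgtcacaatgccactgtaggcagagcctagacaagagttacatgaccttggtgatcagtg
The unit of chr14_GL000225v1_random matched the window of chrUn_GL000216v2 at 82.4% of its bases on the opposite strand. In these windows 45.3% and 62.8% of bases equaled the base 68 bp further on, against 19.6 to 28.3% at unrelated distances. In the 42-bp windows above, 79.3 to 89.5% of bases equaled the base 42 bp further on, against 19.8 to 45.1% at unrelated distances. The background thus differed between the classes, and how far units differ within an array was not compared between them. Alpha satellite has a unit near 170 bp, in capitals here for the highest-scoring summit of chrUn_KI270538v1.
chrUn_KI270538v1:88660-88959: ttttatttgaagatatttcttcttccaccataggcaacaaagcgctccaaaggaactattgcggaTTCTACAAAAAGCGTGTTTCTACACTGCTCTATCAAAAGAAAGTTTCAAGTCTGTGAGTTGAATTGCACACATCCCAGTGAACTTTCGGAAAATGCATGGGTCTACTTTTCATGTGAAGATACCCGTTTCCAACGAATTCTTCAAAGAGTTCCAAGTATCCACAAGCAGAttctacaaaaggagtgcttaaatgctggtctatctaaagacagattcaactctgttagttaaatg

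For ribosomal DNA, the start of the 45S gene on chrUn_GL000220v1 is shown with transcribed bases in capitals, because a minus AP summit lay at 105366, 58 bp before it. The surroundings of the highest-scoring summits of both ribosomal contigs follow, each with the 21 bases around the summit in capitals. Both lie in the intergenic spacer.
chrUn_GL000220v1:105324-105473: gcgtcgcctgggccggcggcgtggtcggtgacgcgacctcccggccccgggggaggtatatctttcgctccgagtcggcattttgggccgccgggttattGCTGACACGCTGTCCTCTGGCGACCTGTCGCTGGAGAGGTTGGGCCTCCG
chrUn_GL000220v1:102512-102662: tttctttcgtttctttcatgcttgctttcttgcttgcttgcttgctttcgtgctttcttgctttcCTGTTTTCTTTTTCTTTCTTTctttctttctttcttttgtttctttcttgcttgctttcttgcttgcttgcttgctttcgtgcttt
chr22_KI270733v1_random:158643-158793: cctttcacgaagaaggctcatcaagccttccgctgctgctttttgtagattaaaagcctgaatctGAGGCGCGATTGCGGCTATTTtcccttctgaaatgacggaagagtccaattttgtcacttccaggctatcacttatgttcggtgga

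Both replicate 1 lists held contig summits and neither replicate 2 list did. Minus AP replicate 1 had 146 of 739 summits on contigs (19.8%, 95% Wilson interval 17.0 to 22.8%), and plus AP replicate 1 had 175 of 1094 (16.0%, 13.9 to 18.3%). Minus AP replicate 2 had 0 of 56, where a limit of 3 summits of the total allows a share of up to 5.36% and the Wilson interval one of up to 6.42%. Plus AP replicate 2 had 0 of 297, which allows up to 1.01% and 1.28% by the same measures. These intervals and limits cover counting error only and treat summits as independent. The mean share was 9.88% ± 14.0 (SD, n = 2) in minus AP and 8.00% ± 11.3 (SD, n = 2) in plus AP. The difference of −1.88 percentage points was smaller than the spread between replicates (two-sided exact permutation test over the 4 libraries, p = 1, where 6 splits allow no p below 0.333). Within replicate 1 the difference was −3.76 points and within replicate 2 it was 0. Both lists with contig summits are of the same replicate number, so that the conditions could be compared on contigs only within that pair, with 1 library each.

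The replicate 2 lists also differed in the sequence under their summits. On assembled chromosomes, 96.4% of minus AP replicate 2 windows and 99.3% of plus AP replicate 2 windows had no 75-bp sequence, the read length, that occurs again in the reference. In the replicate 1 lists this held for 13.5% and 12.7% of chromosome windows and for 11.0% and 9.71% of contig windows. The study's methods state that only uniquely mapped reads were kept. The part of read mapping in the difference between replicates was not tested.

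Per length, summits were far denser on unplaced and unlocalized contigs than on chromosomes. These contigs make up 0.372% of the reference without alternate loci, and they held 13.1 summits per megabase in minus AP replicate 1 and 15.5 in plus AP replicate 1. Assembled chromosomes held 0.202 and 0.313. Alternate loci, which span 100.7 megabases, held only 0.0199 and 0.0497, below the density of the chromosomes. Lengths are those of the reference and not of the arrays in the cells.

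Summits fell on 42 of 430 contigs, and a few contigs held most of them. The leading 4, chr14_GL000225v1_random, chr22_KI270733v1_random, chr1_KI270709v1_random and chrUn_GL000220v1, had 84 summits (57.5%) in minus AP replicate 1 and 91 (52.0%) in plus AP replicate 1. On chr14_GL000225v1_random, 31 summits were listed in each condition, between positions 195 and 137732 of its 211173 bp. The ribosomal contigs had 20 and 23 (chr22_KI270733v1_random) and 17 and 18 (chrUn_GL000220v1), and chr1_KI270709v1_random had 16 and 19. Of the 42 contigs, 29 had summits in both lists, 3 only in minus AP and 10 only in plus AP, and 25 had at most 1 summit in a list. Counts were equal on 16 contigs, higher in plus AP on 20 and higher in minus AP on 6, and the largest difference on a contig was 6 summits.

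**Figure D1:**
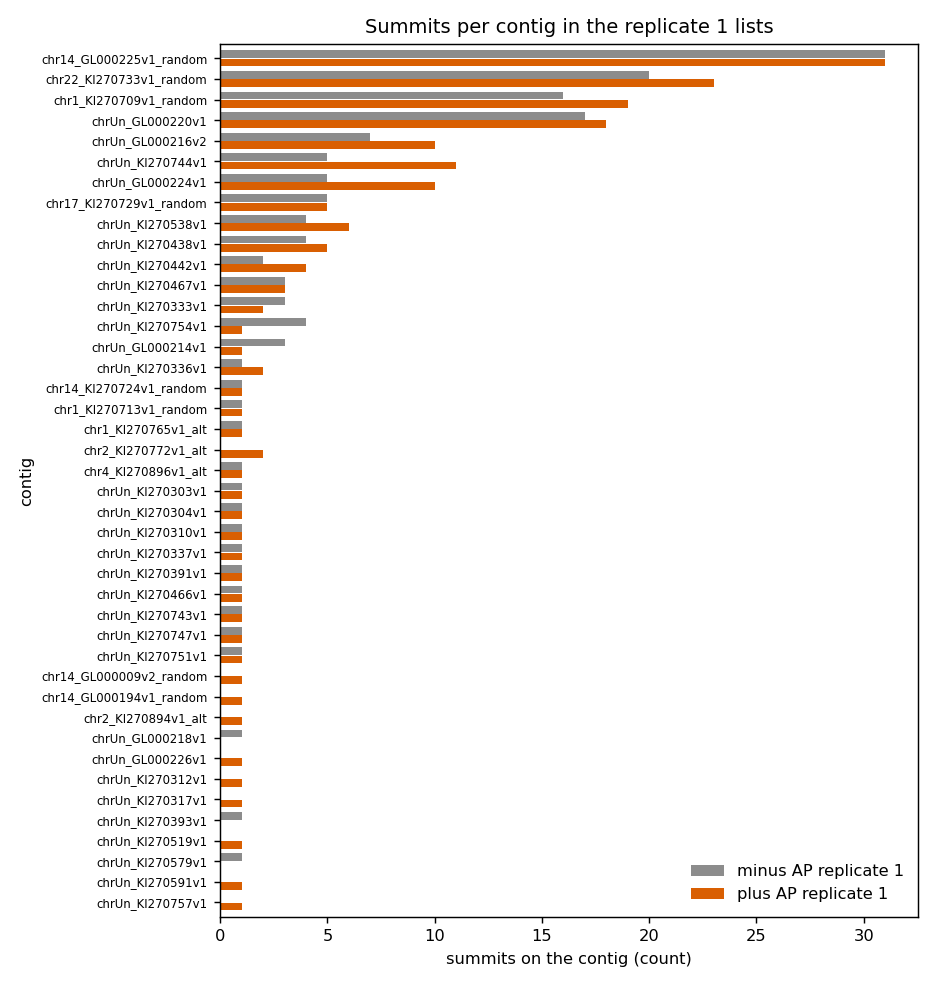
Number of summits on each of the 42 contigs in minus AP replicate 1 (gray bars) and plus AP replicate 1 (orange bars). The replicate 2 lists had no contig summit, chr14_GL000225v1_random leads with 31 in each list, and 25 contigs at the bottom have at most 1 in a list.

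Contig summits ranked from the top to the bottom of both lists. The median contig summit had 42.7% of the minus AP list and 35.6% of the plus AP list of replicate 1 above it in score, against 51.1% and 52.5% for chromosome summits. Unlocalized contigs ranked higher (36.4% and 29.3%) than unplaced contigs (56.5% and 43.3%). Among the 50 highest scores, 9 were contig summits in minus AP replicate 1 and 11 in plus AP replicate 1. That is 6.16% and 6.29% of the contig summits, beside 6.77% and 4.57% of all summits of these lists. The best contig ranks were 6 of 739 and 11 of 1094, so that the highest scores of both lists lay on chromosomes.

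**Figure D2:**
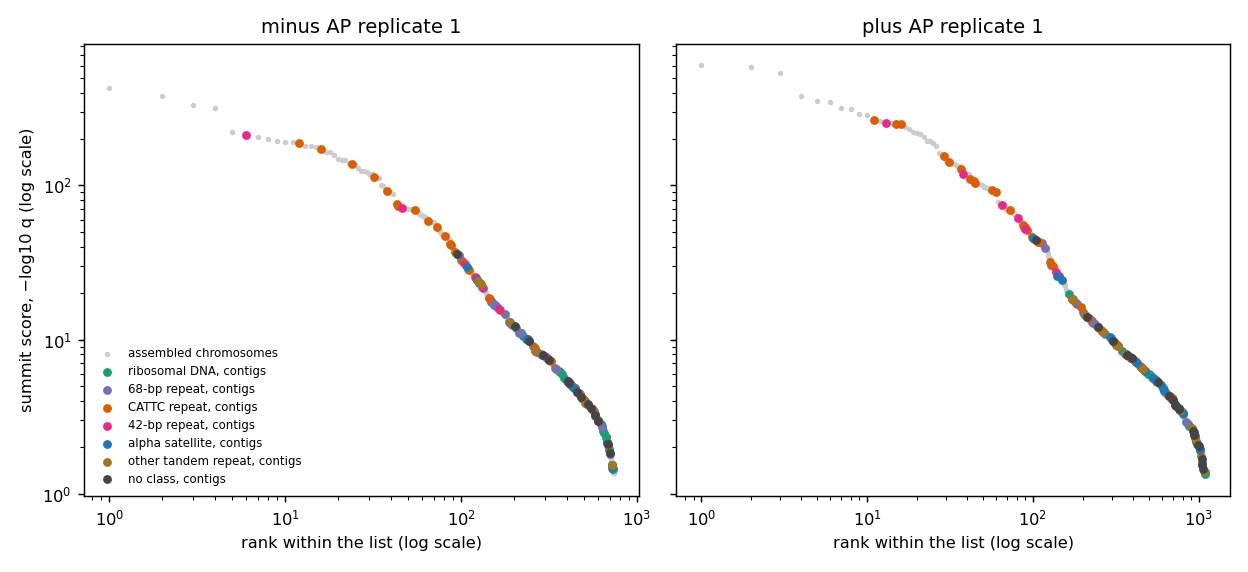
Score (−log10 q, log scale) against rank within the list (log scale) for every summit of minus AP replicate 1 (left) and plus AP replicate 1 (right). Small gray points are chromosome summits and colored points are contig summits by sequence class. CATTC and 42-bp repeats reach the left end, with best contig ranks of 6 and 11, and ribosomal DNA begins at rank 155 and 165.

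CATTC and 42-bp repeats had the highest median ranks among the sequence classes in both lists. The median percentage of the list above a contig summit was 14.4% and 9.55% for CATTC repeats, 16.4% and 8.18% for 42-bp repeats, and 36.5% and 33.0% for 68-bp repeats. For other tandem repeats it was 52.1% and 33.1%, for alpha satellite 57.0% and 49.3%, for ribosomal DNA 66.4% and 46.1%, and for windows with no class 61.9% and 66.6%. The order of the lower classes was not the same in the 2 lists. The CATTC medians rest largely on chr1_KI270709v1_random, which held 16 of 30 and 19 of 36 of these summits, with medians of 8.05% and 5.16%. Medians were 11.8% and 8.09% on chrUn_KI270438v1, and 60.1% and 29.8% on chr17_KI270729v1_random, so that CATTC arrays differed in rank. On chromosomes the medians were 17.7% and 15.3% for CATTC, 13.0% and 16.0% for 42-bp and 24.3% and 24.5% for 68-bp repeats. They were 69.1% and 58.2% for ribosomal DNA and 59.2% and 61.2% for alpha satellite, and no test of contigs against chromosomes was made.

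**Figure D3:**
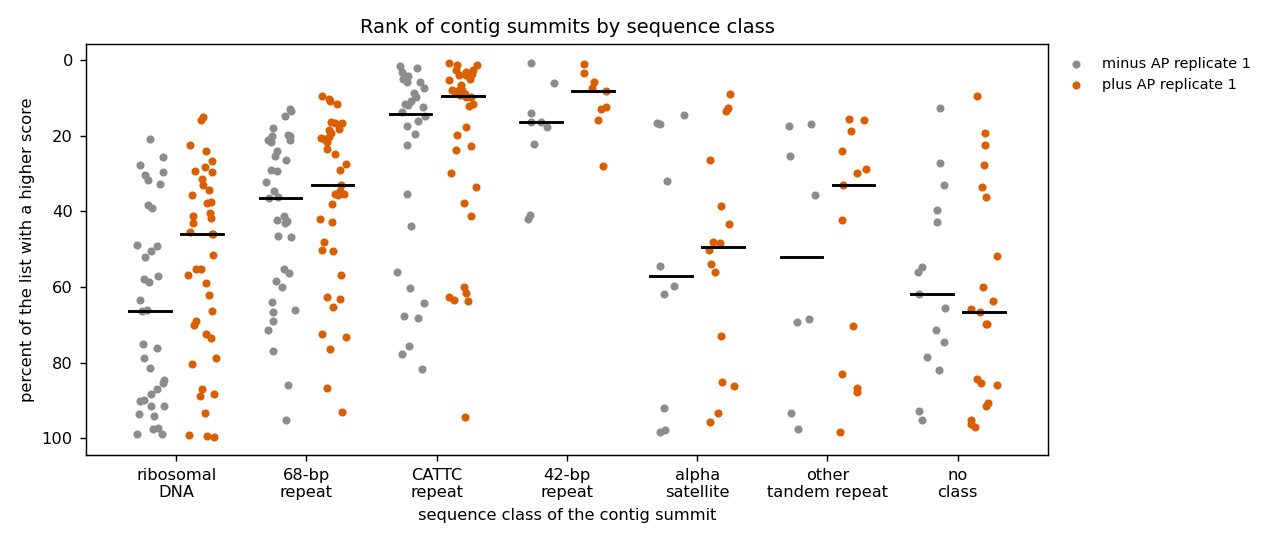
Percent of the list with a higher score for each contig summit, by sequence class (gray, minus AP replicate 1; orange, plus AP replicate 1; black bars, medians; vertical axis reversed so that high scores are at the top). CATTC and 42-bp repeats have medians of 8.18 to 16.4%, and the remaining classes lie between 33.0 and 66.6%.

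CATTC repeats gave 30 contig summits in minus AP replicate 1 and 36 in plus AP replicate 1, on 6 and 8 contigs, and 7 and 9 of the contig summits among the 50 highest scores. All of these 7 and 9 lay on chr1_KI270709v1_random, a contig of 66860 bp whose first 20.5 kb are CATTC repeat. Its 16 and 19 summits lay between positions 206 and 17221, at median gaps of 927 and 774 bp. The highest stood at 5633 in minus AP (score 188.9, rank 12) and 5629 in plus AP (score 264.4, rank 11), followed in both lists by 7529 (ranks 16 and 15). The lowest had scores of 7.23 and 11.3, so that scores varied widely within 1 array. All 16 minus AP summits had a plus AP summit within 250 bp, and the single plus AP summit among the 50 highest without a partner was at 10001 (score 106.9, rank 44).

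Other CATTC arrays carried few summits or none. On chrUn_KI270438v1, 4 and 5 summits lay between positions 101601 and 112139 of its 112505 bp, with best ranks of 81 and 87, and the 19.3 kb of alpha satellite toward its start held none. The 207 kb of CATTC repeat on chr17_KI270729v1_random held 5 and 5, up to position 27802, with a best rank of 111 in minus AP. CATTC repeats on chrUn_KI270442v1 (78.2 kb) held 2 and 1 and on chrUn_GL000216v2 (87.3 kb) 2 and 2. Of 13 contigs with at least 10 kb of CATTC repeat, 7 had no summit in it in any list, 458 kb in all, and 1 of these, chr14_GL000225v1_random, had summits elsewhere. On unplaced and unlocalized contigs together, CATTC repeat had 3.06 and 3.37 summits per 100 kb. This class was also frequent on chromosomes, with 147 and 171 summits, among them the highest score of minus AP replicate 1 (429.5, on chromosome 1).

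Contig summits in 42-bp repeats lay on short contigs and had high ranks. The class gave 9 summits in each replicate 1 list, on 5 contigs of 1026 to 3920 bp. Over all unplaced and unlocalized contigs, 34.7 kb on 31 contigs were of this class, and most of these contigs had no summit in it. On chrUn_KI270467v1 the summit at 1266 ranked 6 in minus AP (score 213.2) and that at 1265 ranked 13 in plus AP (score 254.4), and the 2 further summits in each list ranked between 90 and 307. The single summit of chrUn_KI270337v1 stood at 810 in both lists and ranked 46 (score 71.4) and 38 (score 119.1). That of chrUn_KI270466v1 ranked 105 and 65. The contig chrUn_KI270333v1 had 3 and 2 summits with best ranks of 121 and 81, and chrUn_KI270336v1 had 1 and 2 with best ranks of 122 and 137. None of the 18 windows was repeated by the rule for repeated windows given with the last results, and the median share of 75-bp sequences that occur elsewhere was 0% and 2.11%. On chromosomes the class had 6 and 8 summits, and the one on chromosome 3 ranked 2 in minus AP (score 380.3) and 1 in plus AP (score 609.1).

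The 68-bp repeats gave 37 and 39 contig summits, 31 and 30 of them on chr14_GL000225v1_random, where 109 kb are of this class. Their best ranks were 97 (position 131746, score 35.1) and 106 (131751, score 43.7), and the median gap between summits was 3427 and 3589 bp. The 12 kb of CATTC repeat on the same contig held no summit. On chrUn_GL000216v2, 5 and 8 summits lay in the 33.5 kb of 68-bp repeat, with best ranks of 100 and 114. On chr14_KI270724v1_random 1 summit in each list, at 753 and 751, ranked 178 and 389. Contigs held 63.8% and 60.9% of all 68-bp summits of these lists, the rest being on chromosomes (21 and 25). Density was 21.2 and 22.3 per 100 kb of 68-bp repeat, against 26.0 and 26.0 for 42-bp repeat.

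Alpha satellite was the most frequent class among chromosome summits (266 of 593 and 489 of 919) and held few contig summits (10 of 146 and 16 of 175). Contigs with 1611 kb of it held 0.621 and 0.993 summits per 100 kb, and in 12 of the 17 contigs with at least 10 kb none lay in it, though 3 of the 12 had summits of other classes. The contig with most was chrUn_KI270538v1, with 4 and 6 summits and best ranks of 236 and 475. The highest ranks were on contigs of under 2.2 kb. These were chrUn_KI270303v1 (ranks 108 and 100), chrUn_KI270304v1 (126 and 140) and chrUn_KI270310v1 (149 in plus AP), each with 1 summit per list at positions 1 to 8 bp apart. The CENP-B box, searched on both strands, occurred in 10 of 26 alpha satellite windows on contigs (38.5%) and in 574 of 757 on chromosomes (75.8%), over all lists. It occurred in none of 295 other contig windows and none of 1108 other chromosome windows. A match describes letters and not binding.

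By a broader rule that joins alpha satellite and CATTC repeats, 62 contig windows in minus AP (42.5%, Wilson interval 34.7 to 50.6%) and 71 in plus AP (40.6%, 33.6 to 48.0%) of replicate 1 were satellite, beside 66.8% and 68.9% of all summits. On chromosomes these shares were 72.8% and 74.3%. These counts are not of alpha satellite and CATTC repeats alone, since they take in 15 and 12 windows of 68-bp repeat, 7 and 6 of 42-bp repeat and, in plus AP, 1 of another tandem repeat.

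Ribosomal DNA held 37 contig summits in the minus AP list of replicate 1 (25.3%, Wilson interval 19.0 to 33.0%) and 41 in the plus AP list (23.4%, 17.8 to 30.2%), beside 9.2% and 9.05% of all summits. RefSeq ribosomal RNA genes were placed by matching their sequence. On chrUn_GL000220v1 a 45S gene, RNA45SN5, runs from 105424 to 118780, and a second 45S start lies at 149396, which makes a repeat unit of 43972 bp. On chr22_KI270733v1_random RNA45SN4 runs from 122273 to 135645, and a second start lies at 167355. Ribosomal DNA covered 101549 to 161802 of the former and 118282 to 179772 of the latter, and every summit of both contigs lay inside it, none in the 101548 bp and 118281 bp outside. A stretch of 1871 bp on chrUn_KI270442v1 held no summit, and 31 and 58 further summits lay in ribosomal DNA of chromosome 21. No 5S gene sequence matched a contig.

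Most of these summits lay in the intergenic spacer. In minus AP replicate 1 the spacer held 29 of 37 (78.4%, Wilson interval 62.8 to 88.6%) and in plus AP replicate 1 34 of 41 (82.9%, 68.7 to 91.5%), while it made up 57.6% of the ribosomal bases on contigs. The transcribed part held 8 and 7. Per 10 kb the spacer had 4.14 and 4.86 summits and the transcribed part 1.55 and 1.36. On chromosome 21, where the spacer made up 64.0% of the ribosomal bases, it held 23 of 31 (74.2%) and 50 of 58 (86.2%).

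Contig summits inside 18S, 5.8S and 28S sequences ranked lower in the median than those in the spacer, though not each of them did. The median share of the list above them was 90.1% in minus AP replicate 1 and 60.7% in plus AP replicate 1. For the spacer it was 63.5% and 44.4%. The 18S sequences held 4 and 3 contig summits, the 28S sequences 1 and 3, and the 5.8S sequences none. RNA45SN4 contained 3 summits in each list (best ranks 666 and 376), with 1 and 1 in RNA18SN4 and 0 and 2 in RNA28SN4. RNA45SN5 contained 1 and 2 (best ranks 696 and 725), with 1 and 1 in RNA18SN5 and 0 and 1 in RNA28SN5. The 18S pseudogene RNA18SP4 had 1 and 1 and RNA18SP3 had 1 and 0. None lay in RNA5-8SN4, RNA5-8SN5, RNA5-8SP8 or RNA5-8SP9, and the minus AP summit at 156175 on chrUn_GL000220v1 was 23 bp past the last of these on that contig. The summit 58 bp before the 45S start, in the stretch printed above, had a score of 4.14 and ranked 491, and no plus AP summit lay within 250 bp of it.

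The highest ribosomal scores on contigs lay in the later part of the spacer. On chrUn_GL000220v1 they were 11.8 at 143161 in minus AP (rank 206) and 19.7 at 102587 in plus AP (rank 165). On chr22_KI270733v1_random they were 16.9 at 164613 (rank 155) and 18.2 at 158718. When summits of all copies were placed on 1 unit and joined within 250 bp, the largest group lay 41131 to 41468 bp from the 45S start. It held 11 summits, 6 on contigs and 5 on chromosome 21, from 3 sequences, 4 of them minus AP and 7 plus AP. The largest group in the transcribed part lay in the 18S sequence, 4750 to 5270 bp from the start, with 6 summits from 3 sequences. Between the ribosomal contigs, 5 of 17 (minus AP) and 7 of 18 (plus AP) summits of chrUn_GL000220v1 had one of chr22_KI270733v1_random within 250 bp at the same place in the unit. Windows in ribosomal DNA on contigs had a median of 100% of their 75-bp sequences elsewhere in the reference in both lists. The contigs differed, with medians of 100% on chrUn_GL000220v1 and 82.4% on chr22_KI270733v1_random in both lists. In the median window most sequence of read length thus has another copy. Single windows had few, such as that at 146409 of chr22_KI270733v1_random (plus AP, 0.703%).

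**Figure D4:**
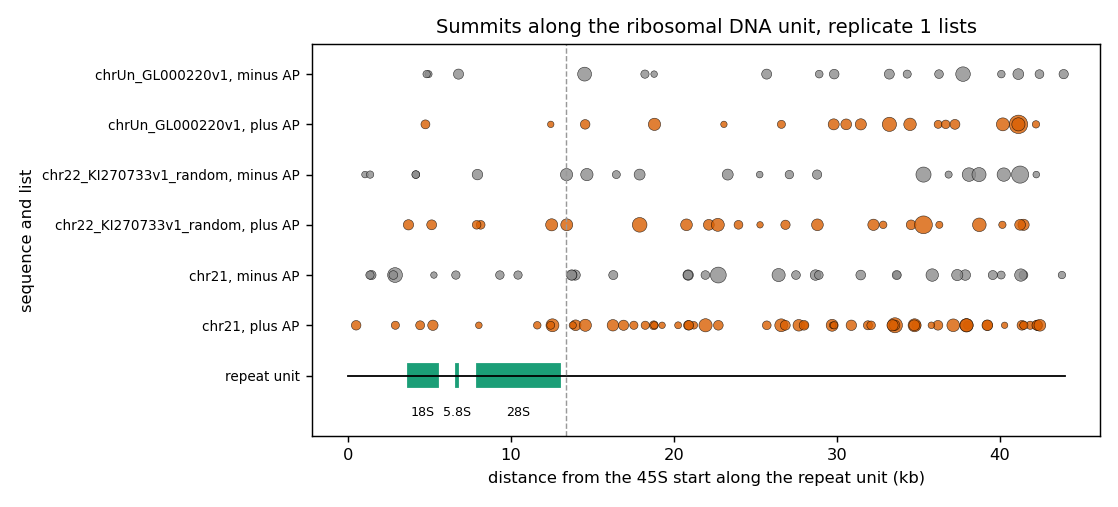
Ribosomal summits placed on 1 repeat unit by distance from the 45S start (kb), for both ribosomal contigs and chromosome 21 (gray, minus AP replicate 1; orange, plus AP replicate 1; larger points have higher scores). Green boxes are the 18S, 5.8S and 28S sequences and the dashed line is the end of the 45S gene on chrUn_GL000220v1; 29 of 37 and 34 of 41 contig summits lie to its right.

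A smaller group of contig summits lay in other tandem repeats (8 and 13) or in windows with no class (15 and 21). On chrUn_KI270744v1, 5 and 11 summits spread over 114 kb, with best ranks of 125 and 172, and on chrUn_GL000224v1, 5 and 10 lay in the first 18.8 kb, with best ranks of 244 and 212. The summits of chrUn_KI270754v1 (4 and 1, best ranks 202 and 729) had windows of high GC content, with a median of 62.7%. On chrUn_GL000214v1 (3 and 1) a summit stood at 65111 in both lists (ranks 265 and 207). Single summits of chrUn_KI270751v1 ranked 130 and 175.

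Few contig summits matched a gene other than those of ribosomal RNA. On chr1_KI270713v1_random the summits at 22026 (minus AP, score 35.8, rank 95) and 21907 (plus AP, score 44.4, rank 104) were the highest of windows with no class. Both windows held all 164 bp of RNU1-1 without a difference, the U1 small nuclear RNA that recognizes the start of introns. A full U1 variant sequence, RNVU1-28, also stood in both windows of chr1_KI270765v1_alt (ranks 316 and 397). Windows of chr4_KI270896v1_alt (ranks 458 and 367) matched transcripts of DUX4, a transcription factor gene in a subtelomeric array, over 417 and 475 bp without a difference, and transcripts of 23 gene symbols matched within the limits used. Most other matches were to noncoding transcripts.

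Summits at the same place recurred between the conditions. Within 250 bp on the same contig, 92 contig summits of each replicate 1 list had a partner in the other, 63.0% of minus AP (Wilson interval 54.9 to 70.4%) and 52.6% of plus AP (45.2 to 59.8%), beside 54.4% and 36.7% of all summits. On chromosomes 310 were shared, 52.3% and 33.7%. The median distance within the 92 pairs was 13.5 bp, and 70 were within 50 bp. Partners had similar ranks, with a Spearman correlation of 0.842 over the 92 pairs and of 0.826 over the 310 chromosome pairs. Pairs on 1 contig share its sequence and copy number, and these values are descriptions. Summits were also far denser on contigs than on chromosomes, so that any place in such an array is more often within 250 bp of a summit. The part of density in the percentages shared was not tested. By class, 25 pairs lay in CATTC repeats, 23 in 68-bp repeats, 20 in ribosomal DNA, 6 each in 42-bp and other tandem repeats, 5 in alpha satellite and 7 in windows with no class.

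In 72 of the 92 pairs the plus AP partner had a smaller share of its list above it. In CATTC repeats this held for 24 of 25 pairs, in 68-bp repeats for 15 of 23 and in ribosomal DNA for 13 of 20. The same held for 228 of the 310 chromosome pairs (73.5%), beside 78.3% of the contig pairs, so that this direction was common to shared summits of both kinds. The scores themselves were not compared between lists, since depth is unknown. The lists differ in length (739 and 1094), and a share sets the rank against that length. A smaller share in plus AP can therefore go with an equal or larger rank number. On chrUn_KI270438v1 the partners at 112137 and 112139 both ranked 88, with shares of 11.8% and 8.00%. On chr14_GL000225v1_random those at 131746 and 131751 ranked 97 and 106, with 13.1% and 9.64%. The 72 pairs thus count shares and not rank numbers, and the part of list length in them was not tested. Shared contig summits had median shares above them of 31.2% and 22.6%, against 64.9% and 55.3% for those without a partner. Among the 100 highest scores, 19 of 19 contig summits of minus AP and 21 of 23 of plus AP were shared, and on chromosomes 76 of 81 and 73 of 77.

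**Figure D5:**
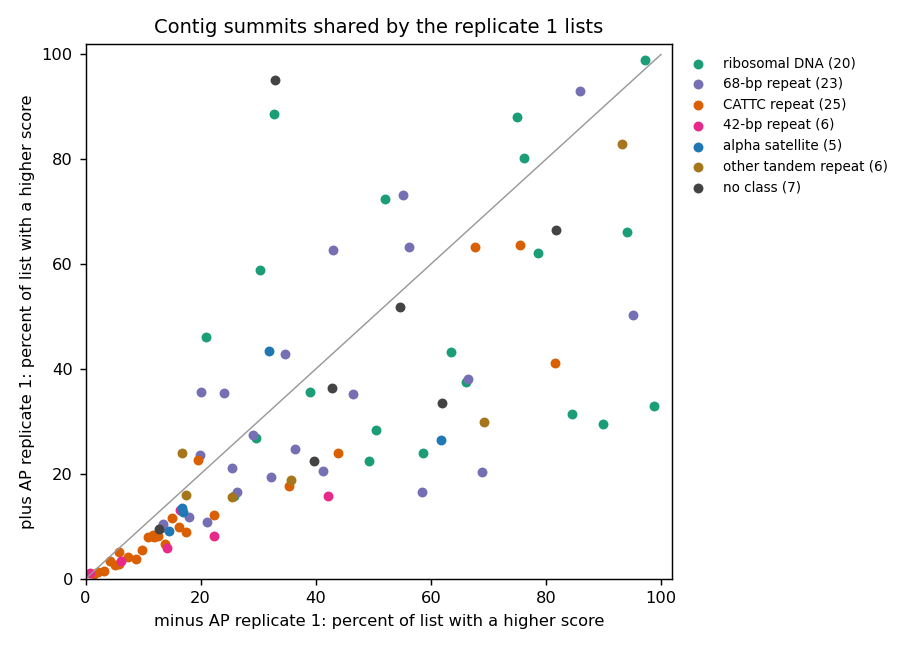
Percent of the list with a higher score in plus AP replicate 1 against minus AP replicate 1 for the 92 contig summit pairs within 250 bp, colored by class with the number of pairs; the line marks equal shares. In 72 pairs the point lies below the line, and most pairs of CATTC repeats gather near the origin.

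The share of repeated windows was lower on contigs than on chromosomes over all classes together, and not within each class. The term repeated stands for windows in which 90% or more of the 75-bp sequences occur at another place in the reference, alternate loci aside. In the minus AP list of replicate 1 this held for 43 contig windows (29.5%, Wilson interval 22.7 to 37.3%) and for 47.9% of chromosome windows (43.9 to 51.9%). In the plus AP list it held for 46 (26.3%, 20.3 to 33.3%) and 54.7% (51.5 to 57.9%). Over all summits the shares were 44.2% and 50.2%. Ribosomal DNA gave 21 and 23 of the repeated contig windows, CATTC repeats 9 and 12, and 68-bp and 42-bp repeats none. For CATTC repeats the share was higher on contigs (30.0% and 33.3%) than on chromosomes (11.6% and 12.3%), while for alpha satellite it was 40.0% and 18.8% on contigs and 79.3% and 80.4% on chromosomes. Repeated and unrepeated windows thus both held summits, and the median share of 75-bp sequences found elsewhere was 61.9% and 59.0% over all contig windows.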

How the data were processed

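Summits of 4 GluGlu libraries were used, and 8 input and IgG libraries were not analysed here. The reads (75 bp, paired) had been aligned by the authors to GRCh38 with Bowtie2 2.2.9. The methods state that duplicates and reads without a unique place were removed, which could not be checked on summit lists, and that peaks were called against input with MACS2 2.2.7.1, with 1 list deposited per library. The deposited score is the −log10 of the q-value, and its lowest values lie just above that of a q of 0.05. Depth is not given. Groups follow the sample titles. Summits were ranked within lists. Windows of 501 bp were classed by copies of CATTC and by self-match at fixed lags, over 7 percentage points above control lags. The rule was tested only on simulated sequences, in which copies of a unit were more alike than in the 68-bp windows printed here. Each 75-bp sequence was counted on both strands of GRCh38. Ribosomal DNA was found with BLAST 2.17.0 (identity of at least 90%, length of at least 400 bp), and transcripts of GENCODE 44 at 95% identity over 100 bp. Calculations used Python 3.11.15, numpy 2.4.6, pandas 2.3.3 and scipy 1.17.1. Contigs were named if they had 3 or more summits in a list or 1 of its 10 highest contig scores, and further contigs named to show a class were chosen after their values were seen. The regions, classes and rules were chosen with earlier results of these data known. Alternatives changed distances, thresholds, score minimum and libraries. The labels do not say that same-numbered libraries share a culture, and with contig summits in 2 of 4 lists the pairing could not be checked.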

Additional observations from a re-analysis of the deposited data

How the results depend on the processing

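Leaving out alternate loci, scores under 2, or summits within 500 bp of a higher one, and leaving out chromosome Y and the mitochondrial genome, kept the difference in contig share between −1.96 and −1.69 points. With the replicate number as a block it was −1.88 (exact permutation p = 1). It reversed with the 56 highest scores of every list (0.893 points) and ranged from −11.8 to 8.00 points when single libraries were left out: without minus AP replicate 1 it was 8.00 and without plus AP replicate 2 it was 6.12, the replicate 2 lists holding no contig summit. Shared contig summits of minus AP replicate 1 came to 54.8% within 100 bp, and within 1000 bp to 76.0% there and 69.1% in plus AP replicate 1. Ribosomal summits limited to 18S, 5.8S and 28S were 3.42% and 3.43%. With an excess self-match 2 times as large, satellite windows were 30.8% and 32.6%. Contig summits numbered 3 and 4 among the 20 highest scores and 19 and 23 among the 100 highest. Without alternate loci, density was 13.1 and 15.5 per megabase instead of 1.31 and 1.57 over all contigs. Of 68 alternative values, 52 stayed the same in direction and within their error. An alternative chosen after seeing the data, which counts copies on alternate loci too, is among them. Depth is unknown, so that places without a summit were below detection rather than shown to lack binding, and array lengths in the cells were not measured.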
